A study of Homo sapiens with 12 samples.

Results

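The core and linker histone cluster genes are the subject of this report. They were taken as every probe whose symbol in the probe annotation belonged to an H1-1 to H1-6, H2AC, H2BC, H3C or H4C gene (older names beginning HIST1H, HIST2H, HIST3H or HIST4H). This gave 79 probes for 69 genes, of 20046 genes with a probe carrying a single symbol. A probe was followed when its detection p was under 0.05 on at least 3 of the 12 arrays, which 29 histone probes met and 50 did not. Of these 29 probes, 28 carried 1 gene symbol and together stood for 25 genes. The other was annotated to both H3C11 and H3C6 and names neither gene here.

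Histones H2A, H2B, H3 and H4 form the protein core around which DNA is wrapped, and the linker histone H1 binds where the DNA enters and leaves that core. Their genes lie in clusters of many near-identical copies, and most are expressed with DNA replication. Their mRNAs typically end in a stem-loop without a poly(A) tail, although several of the genes also make polyadenylated transcripts, mainly described in cells that have left the cell cycle.

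All 12 arrays came from BJ, an established human fibroblast line. The cells were exposed to lentivirus for 72 h before a 60 h siRNA transfection. In the T350A re-expression group, the virus carried an RNAi-resistant EZH2 with its threonine replaced by alanine, and the siRNA was directed against EZH2. In the EZH2 re-expression group, the virus carried RNAi-resistant EZH2 and the siRNA was again directed against EZH2. The si-EZH2 group received control virus and the siRNA against EZH2, and the si-Control group received control virus and control siRNA. All 4 groups were therefore both transduced and transfected, and each had 3 arrays of the same chip. EZH2 is the enzyme of Polycomb repressive complex 2 that methylates histone H3, and the series asks how phosphorylation of this threonine bears on gene repression. The promoter driving the viral genes is not given in the sources used here, and the labels do not say that replicates were separate cultures. The p-values therefore measure only the spread between these arrays, whose number limits the precision.

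Between 20658 and 21910 of 47231 probes were detected per array. The targeted gene EZH2 had 3 probes, and all of them were lower in si-EZH2 than in si-Control. ILMN_1652913 averaged 7.99 in T350A re-expression, 8.55 in EZH2 re-expression, 5.39 in si-EZH2 and 6.33 in si-Control on the log2 intensity scale. ILMN_2364529 averaged 7.18 in T350A re-expression, 8.48 in EZH2 re-expression, 4.65 in si-EZH2 and 5.63 in si-Control. By this probe the level in T350A re-expression was lower than in EZH2 re-expression (-1.29, limma adjusted p = 0.000254), while ILMN_1652913 differed by -0.56 (adjusted p = 0.211). By ILMN_2364529 the groups with the mutant and the unmutated EZH2 therefore did not hold equal EZH2 mRNA. For ILMN_1652913 the arrays lay between 7.93 and 8.06 in T350A re-expression and between 8.46 and 8.62 in EZH2 re-expression. ILMN_1708105 averaged 5.91 in T350A re-expression, 5.84 in EZH2 re-expression, 5.70 in si-EZH2 and 6.79 in si-Control. Re-expression did not return EZH2 to the si-Control level. EZH2 re-expression exceeded si-Control by 2.23 for ILMN_1652913 and 2.84 for ILMN_2364529 (limma adjusted p = 9.72e-08 and 2.85e-09). T350A re-expression exceeded it by 1.67 and 1.55 (both 3.29e-06). ILMN_1708105 stayed below si-Control, by -0.95 in EZH2 re-expression and -0.87 in T350A re-expression (adjusted p = 0.000602 and 0.00228). All 10 fibroblast markers were detected on all 12 arrays. Of 7 epithelial markers, EPCAM, KRT8 and KRT18 were detected on 12 arrays, CLDN4 on 6, and CDH1, KRT5 and KRT14 on 0. Of 6 endothelial markers, TEK was detected on 12 arrays, PECAM1 on 1, and VWF, CDH5, KDR and TIE1 on 0. Of 5 leukocyte markers, CD14 and CD68 were detected on 12 arrays, ITGAM on 3, and PTPRC and CD3E on 0.

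The number of probes that could be followed varied between histones, and this was not tested. For H1, 2 of 6 probes were followed, both in the cluster on chromosome 6. For H2A these were 7 of 19 probes, for H2B 9 of 23, for H3 4 of 16 and for H4 7 of 15. Of the 60 probes of the HIST1 cluster on chromosome 6, 20 were followed. In the HIST2 cluster on chromosome 1 these were 8 of 16, in the HIST3 genes on chromosome 1, 1 of 2, and in the only HIST4 probe 0 of 1. Of the 79 probes, 22 were detected on all 12 arrays and 37 on none.

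**Figure D1:**
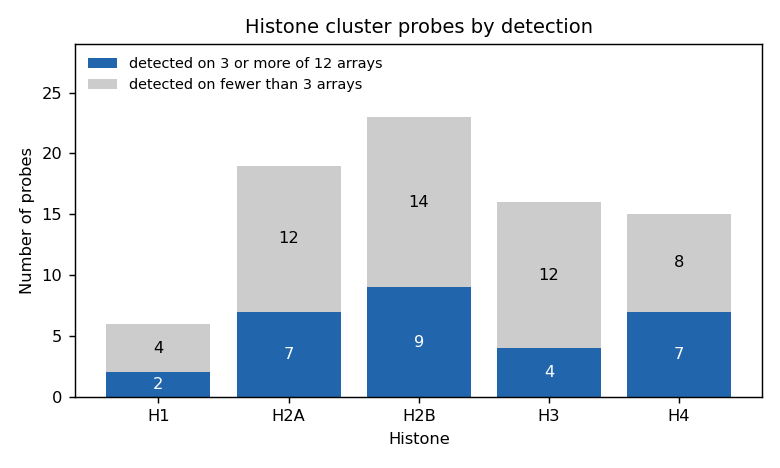
Number of histone cluster probes on the array for each histone (x axis), split into probes detected on 3 or more of the 12 arrays (blue) and on fewer (grey). H2B had the most followed probes, 9 of 23, and H1 the fewest, 2 of 6.

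Just inside the detection limit lay the probes of H1-1, H4C11 and H4C5, each detected on 7 arrays with means over the 12 arrays between 4.97 and 5.08. Just outside lay those of H2AC17, H2AC8, H2BC18 (ILMN_3229566) and H3C13 (ILMN_3249188), each detected on 2 arrays with means between 4.66 and 4.80. The 44 genes without a followed probe of their own included the linker histone genes H1-3, H1-4, H1-5 and the testis gene H1-6, the H3 genes H3C1, H3C2, H3C3 and H3C8, and the H4 genes H4C1, H4C2, H4C4 and H4C6. Nothing follows from a probe below this limit about the non-polyadenylated mRNA of its gene. The RNA was labelled with a kind of kit that primes from poly(A) tails. The values and calls of the followed probes may therefore not report that mRNA either. In these bulk samples, fewer cells expressing a histone gene and less of its RNA per cell cannot be told apart.

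Probes of the same gene did not always share a detection status. H2AC11 had a probe detected on 12 arrays (ILMN_1686478) and a second on 0 (ILMN_2184602). H2BC5 had 2 probes detected on 12 arrays and a further one, annotated to another transcript, detected on 0. H2BC18 had 1 probe detected on 12 arrays and 2 probes for another transcript on 2 and 0 arrays. The 3 probes of H3C13 were detected on 1, 0 and 2 arrays. On the T350A re-expression arrays 28 to 31 of the 79 probes were detected, on the EZH2 re-expression arrays 29 to 32, on the si-EZH2 arrays 25 to 30 and on the si-Control arrays 25 to 28.

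Promoter sequences are shown for the genes whose probes carried the differences described below and for H2BC12, an H2B gene with 2 followed probes, neither of which was called. The windows run from 250 bases before to 50 bases after the RefSeq start site and are credited to RefSeq (GRCh38.p14). A window was found for 24 of the 25 genes with a followed probe and for 40 of the 44 others. 3 short elements of histone promoters were searched on both strands: the CCAAT box (CCAAT, or ATTGG on the other strand), the TATA box (TATAAA, or TTTATA) and the H2B octamer element (ATTTGCAT, or ATGCAAAT). Matches are in capitals and all other bases in lower case. The windows are those of H2AC19 (chr1:149850811-149851110, plus strand), H2BC5 (chr6:26157871-26158170, plus strand, the first of 2 windows listed), H2BC9 (chr6:26251364-26251663, plus strand) and H2BC12 (chr6:27146809-27147108, minus strand, the first of 2 windows listed).
H2AC19: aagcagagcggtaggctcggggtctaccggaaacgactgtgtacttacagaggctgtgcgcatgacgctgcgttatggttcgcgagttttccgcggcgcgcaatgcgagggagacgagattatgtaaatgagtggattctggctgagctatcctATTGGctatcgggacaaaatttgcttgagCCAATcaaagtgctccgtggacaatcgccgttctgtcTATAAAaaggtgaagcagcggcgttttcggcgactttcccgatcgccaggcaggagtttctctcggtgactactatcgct
H2BC5: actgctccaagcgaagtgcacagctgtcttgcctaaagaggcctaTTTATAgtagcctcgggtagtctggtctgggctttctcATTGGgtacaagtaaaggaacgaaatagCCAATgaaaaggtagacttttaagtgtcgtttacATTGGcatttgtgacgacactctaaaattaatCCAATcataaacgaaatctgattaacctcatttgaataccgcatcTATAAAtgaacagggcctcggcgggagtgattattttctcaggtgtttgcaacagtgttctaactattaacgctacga
H2BC9: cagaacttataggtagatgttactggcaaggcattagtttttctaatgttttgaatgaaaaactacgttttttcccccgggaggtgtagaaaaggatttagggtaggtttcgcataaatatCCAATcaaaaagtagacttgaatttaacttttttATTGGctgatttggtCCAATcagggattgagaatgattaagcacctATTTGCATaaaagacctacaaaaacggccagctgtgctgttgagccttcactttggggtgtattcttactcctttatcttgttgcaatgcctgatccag
H2BC12: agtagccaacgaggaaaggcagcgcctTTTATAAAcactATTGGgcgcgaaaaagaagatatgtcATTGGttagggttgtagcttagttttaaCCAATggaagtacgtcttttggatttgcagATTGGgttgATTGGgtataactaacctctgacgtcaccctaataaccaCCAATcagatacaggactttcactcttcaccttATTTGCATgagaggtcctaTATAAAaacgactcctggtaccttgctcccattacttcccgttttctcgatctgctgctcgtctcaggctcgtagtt

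H2AC19 and its neighbour H2AC18, an inverted copy on the same chromosome (chr1:149842701-149843000, minus strand), had promoter windows that were identical at 299 of 299 aligned bases when shifted by 1 base. RNA of these copies may not be told apart by their probes. The same holds for the H4 genes H4C14 and H4C15, whose windows matched at 300 of 300 bases, so the values of these 4 genes are uncertain as to the copy. Other copies share coding sequence too, and probe sequences were not used here. In the H2AC19 window the CCAAT matches began at positions -96 and -67 and the TATA match at -30, counted from the start site. In the H2BC9 window the octamer match began at -49, and no TATAAA was found. In the H2BC12 window the octamer match began at -46 and a TATA match at -27, and 2 further TATA matches on opposite strands overlapped near -223. The H2BC5 window held 4 CCAAT and 2 TATA matches and no ATTTGCAT.

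The octamer element was present in 6 of 7 windows of followed H2B genes (85.7%) and in 8 of 11 windows of the other H2B genes (72.7%), against 492 of all 27305 promoter windows (1.8%). It was also present in 3 of 6 followed and 8 of 10 other H2A windows (H2A and H2B genes often lie back to back). It was present in 1 of 3 followed and 0 of 8 other H3 windows, and in 0 of 6 followed H4 windows. CCAAT was present in 18 of 24 windows of followed histone genes (75%), in 36 of 40 of the others (90%) and in 35.7% of all windows. All 18 followed windows without H4 held it and none of the 6 H4 windows did. TATAAA was present in 15 of 24 followed windows (62.5%), 27 of 40 others (67.5%) and 12% of all. A match describes the letters only.

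The 6 pairwise comparisons were fitted on all 23313 followed probes of the array, and a probe was called at a Benjamini-Hochberg adjusted p under 0.05. Calls among the histone probes were few, and all of them were higher values in EZH2 re-expression. In EZH2 re-expression against si-Control, the probes of H2AC19, H2AC18, H2BC5 and H2BC9 rose, by 0.40 to 0.52 on the log2 scale. In EZH2 re-expression against si-EZH2, the H2BC9 probe rose by 0.48. These 2 comparisons share the EZH2 re-expression arrays, so the H2BC9 calls are not independent of each other. In the remaining 4 comparisons 0 of the 29 probes were called.

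EZH2 re-expression against si-Control had 4 of 29 histone probes called (13.8%), where the background over all tested probes was 7.24%. All 4 were higher and 0 were lower, and the background was 3.6% called higher and 3.64% called lower. RNA of the copies H2AC18 and H2AC19 may not be told apart, so the 4 calls may not stand for 4 separate genes. The second followed probes of H2AC18 and H2BC5 were not called (adjusted p = 0.313 and 0.333). The EZH2 re-expression minus si-Control difference was above 0 for 23 of the 29 probes, against 50.5% of all tested probes. Its median over the 29 was 0.22 on the log2 scale, while the median of all tested probes was 0.00. In 10 of the 29 probes every EZH2 re-expression array lay above every si-Control array (14.4% of all tested probes). In 1 every array lay below (14.2% of all). Probes with all arrays above numbered 7 in si-EZH2 against si-Control (10.8% of all) and 7 in T350A re-expression against si-Control (11.5%). They numbered 8 in EZH2 re-expression against si-EZH2 (12.5%) and 4 in T350A re-expression against si-EZH2 (9.12%). All arrays lay below in 0 (10.7% of all), 1 (11.3%), 1 (12.5%) and 0 (9.49%), in the same order. These comparisons share arrays, so the counts are not independent.

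EZH2 re-expression against si-EZH2 had 1 of 29 histone probes called (3.45%), where the background was 2.88% in either direction, 1.5% called higher and 1.38% called lower. The difference was above 0 for 20 of the 29 (50.3% of all tested probes), with a median of 0.09. At an unadjusted p under 0.05 there were 10 of 29 probes, against 18.4% of all tested probes.

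si-EZH2 against si-Control had 0 of 29 called, with a background of 2.84% in either direction and 1.29% called lower. At an unadjusted p under 0.05 there were 4 of 29 (15.9% of all tested), those of H2AC19, H2BC21, H4C8 and H2AC18. The difference was above 0 for 15 of 29 (49.3% of all), and the median was 0.11. The smallest adjusted p was 0.0518, for H2AC19.

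T350A re-expression against si-Control also had 0 of 29 called, with a background of 3.56% in either direction and 1.81% called lower. At an unadjusted p under 0.05 there were 7 of 29, against 19% of all. The difference was above 0 for 23 of 29 (50% of all), with a median of 0.17. This comparison shares its si-Control arrays with both comparisons above that use them, so the counts above 0 are not independent.

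T350A re-expression against si-EZH2 had 0 of 29 called, with a background of 0.103%. At an unadjusted p under 0.05 there were 5 of 29, against 13.7% of all, and the difference was above 0 for 18 of 29 (50.1% of all), with a median of 0.06. T350A re-expression against EZH2 re-expression had 0 of 29 called, with a background of 0.00858%. At an unadjusted p under 0.05 there were 2 of 29 (8.79% of all), those of H2AC19 and H2BC5, both lower in T350A re-expression. The difference was above 0 for 10 of 29 (49.6% of all) and its median was -0.06. The 95% confidence intervals of the T350A minus EZH2 difference lay within 1.5-fold in both directions for all 29 probes. In each of the 6 comparisons the intervals of all 29 lay within 2-fold. EZH2 mRNA itself was lower in T350A re-expression than in EZH2 re-expression by ILMN_2364529 (-1.29). Its part in the T350A minus EZH2 differences was not tested.

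The F-test over the 4 groups called 2 of 29 probes (6.9%), with a background of 6.82%. These were H2AC19 (adjusted p = 0.0237) and H2BC9 (adjusted p = 0.0255).

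**Figure D2:**
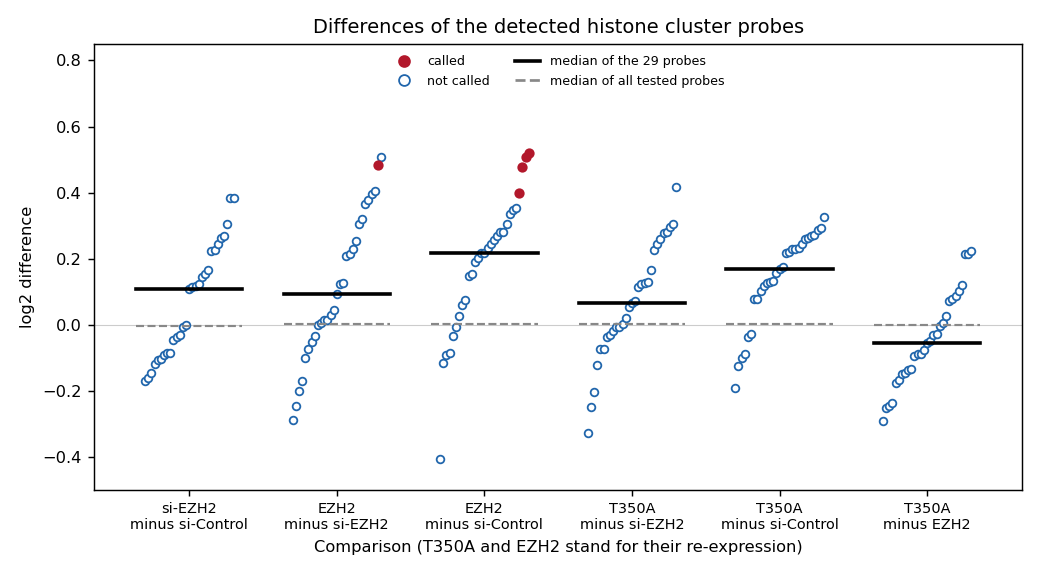
log2 difference (y axis) of each of the 29 followed histone probes, sorted within each comparison (x axis). Red points were called, black lines are medians over the 29 probes and dashed lines medians over all tested probes. The 4 called probes of EZH2 re-expression minus si-Control lie between 0.40 and 0.52, and the 1 of EZH2 re-expression minus si-EZH2 at 0.48.

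Set against the si-Control mean, the median deviation of the 29 probes on single arrays was 0.13 to 0.15 in T350A re-expression, 0.15 to 0.27 in EZH2 re-expression, 0.07 to 0.10 in si-EZH2 and 0.01 to 0.03 in si-Control. The median over all tested probes stayed within 0.01 of 0 on each array. The si-Control arrays lie near 0 by construction here, and the other 9 arrays share the error of the si-Control mean. Among those 9, the si-EZH2 arrays were below those of both re-expression groups, whose ranges nearly met. This is a description, with no test.

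**Figure D3:**
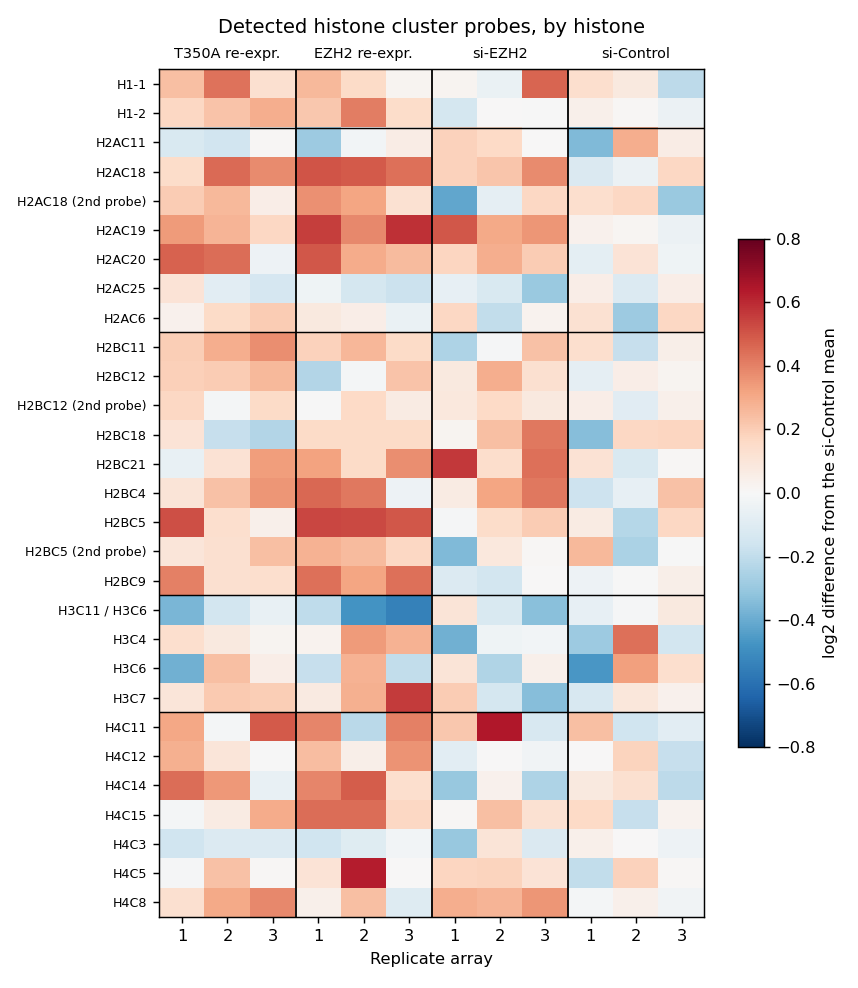
Deviation of each of the 29 followed probes (rows, grouped by histone) from its si-Control mean on the 12 arrays (columns, 3 replicates per group), on the log2 scale. H2AC19, H2AC18, H2BC5 and H2BC9 are red on all 3 EZH2 re-expression arrays, and the probe annotated to H3C11 and H3C6 is blue on all 3.

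Among the linker histone genes, H1-2, which encodes a main somatic H1, had 8.87, 8.93 and 9.0 in T350A re-expression and 8.92, 9.11 and 8.85 in EZH2 re-expression. It had 8.56, 8.71 and 8.70 in si-EZH2 and 8.74, 8.71 and 8.66 in si-Control. Every array of either re-expression group lay above every array of si-EZH2 and si-Control. The difference from si-EZH2 was 0.28 ± 0.10 in T350A re-expression (SE, adjusted p = 0.233) and 0.30 ± 0.10 in EZH2 re-expression (adjusted p = 0.114), so neither passed the test. H1-1, the other linker histone gene with a followed probe, averaged 5.11 ± 0.16 in T350A re-expression, 4.99 ± 0.12 in EZH2 re-expression, 4.98 ± 0.28 in si-EZH2 and 4.84 ± 0.19 in si-Control (SD, n = 3 each), with groups that overlapped.

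Among the H2A genes, H2AC19 (HIST2H2AA4) had the smallest adjusted p. Its probe had 9.53, 9.47 and 9.36 in T350A re-expression, 9.75, 9.58 and 9.78 in EZH2 re-expression, 9.69, 9.49 and 9.55 in si-EZH2 and 9.23, 9.21 and 9.14 in si-Control. The si-Control arrays were below every array of the other 3 groups. The difference was 0.51 ± 0.10 in EZH2 re-expression against si-Control (1.42-fold, adjusted p = 0.00729). In si-EZH2 against si-Control it was 0.38 ± 0.10 (1.30-fold, adjusted p = 0.0518), and in T350A re-expression against si-Control 0.26 ± 0.10 (adjusted p = 0.169). The H2AC19 probe was lower in T350A re-expression than in EZH2 re-expression by -0.25 ± 0.10, with no overlap of arrays, and this did not pass the test (adjusted p = 0.507).

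The probe ILMN_1659047 of H2AC18, the neighbouring copy, had 8.98, 9.28 and 9.21 in T350A re-expression, 9.33, 9.32 and 9.27 in EZH2 re-expression, 9.01, 9.05 and 9.21 in si-EZH2 and 8.71, 8.78 and 8.99 in si-Control. It rose by 0.48 ± 0.11 in EZH2 re-expression against si-Control (1.39-fold, adjusted p = 0.0181), where the arrays did not overlap. The second probe of the gene, ILMN_2144426, differed by 0.27 ± 0.15 in the same comparison and did not pass the test (adjusted p = 0.313). In si-EZH2 against si-Control the 2 probes pointed in opposite directions, with 0.26 and -0.11.

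H2AC20, a further H2A gene of the HIST2 cluster, had 8.82, 8.80 and 8.31 in T350A re-expression, 8.85, 8.65 and 8.60 in EZH2 re-expression, 8.53, 8.64 and 8.55 in si-EZH2 and 8.27, 8.46 and 8.32 in si-Control. Its difference of 0.35 ± 0.13 in EZH2 re-expression against si-Control did not pass the test (adjusted p = 0.122). It was called under some of the other settings, given below. H2AC6 and H2AC11 of the HIST1 cluster and H2AC25 of the HIST3 genes had differences between -0.12 and 0.03 in that comparison, and none was called in any comparison.

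The H2B genes gave the other 2 called probes. H2BC5 (HIST1H2BD), one of the genes described as making polyadenylated mRNA, had 10.33, 9.95 and 9.85 in T350A re-expression, 10.35, 10.35 and 10.31 in EZH2 re-expression, 9.81, 9.96 and 10.02 in si-EZH2 and 9.88, 9.59 and 9.98 in si-Control for the probe ILMN_1651496. The 3 EZH2 re-expression arrays lay above all si-EZH2 and si-Control arrays, and 1 T350A re-expression array reached their level. The difference was 0.52 ± 0.13 in EZH2 re-expression against si-Control (1.43-fold, adjusted p = 0.0276) and 0.41 ± 0.13 against si-EZH2 (adjusted p = 0.112). The latter was called under some of the other settings, given below. The second followed probe of H2BC5, ILMN_1758623, differed by 0.23 ± 0.14 against si-Control (adjusted p = 0.333) and was not called.

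H2BC9 (HIST1H2BH) was near the detection limit: its probe was detected on 3 of 3 arrays in T350A re-expression, 3 of 3 in EZH2 re-expression, 1 of 3 in si-EZH2 and 2 of 3 in si-Control. It had 5.40, 5.13 and 5.14 in T350A re-expression, 5.44, 5.32 and 5.45 in EZH2 re-expression, 4.89, 4.86 and 5.0 in si-EZH2 and 4.96, 5.0 and 5.05 in si-Control. Every array of both re-expression groups lay above every array of the groups with control virus. The rise was 0.48 ± 0.10 in EZH2 re-expression against si-EZH2 (1.4-fold, adjusted p = 0.0219) and 0.40 ± 0.10 against si-Control (1.32-fold, adjusted p = 0.0288). In T350A re-expression against si-EZH2 the difference was 0.31 ± 0.10 and did not pass the test (adjusted p = 0.204). The T350A minus EZH2 difference was -0.18 ± 0.10 (adjusted p = 0.658, 95% confidence interval from -0.40 to 0.04).

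H2BC12 (HIST1H2BK), which makes polyadenylated transcripts as well, averaged 11.99 ± 0.04 in T350A re-expression, 11.76 ± 0.23 in EZH2 re-expression, 11.93 ± 0.11 in si-EZH2 and 11.77 ± 0.07 in si-Control (SD, n = 3 each, probe ILMN_1796179). The EZH2 re-expression mean was near that of si-Control, with a difference of -0.0068 ± 0.12 and a 95% confidence interval from -0.25 to 0.24. Its second probe, ILMN_1813314, differed by 0.07 ± 0.10 in the same comparison. H2BC21 (HIST2H2BE) had 8.25, 8.42 and 8.64 in T350A re-expression, 8.63, 8.46 and 8.68 in EZH2 re-expression, 8.87, 8.45 and 8.74 in si-EZH2 and 8.42, 8.18 and 8.31 in si-Control. Its difference of 0.38 ± 0.13 in si-EZH2 against si-Control did not pass the test (adjusted p = 0.145), though the arrays did not overlap. H2BC4, H2BC11 and H2BC18 had 0 calls, and their differences from si-Control in EZH2 re-expression lay between 0.15 and 0.28.

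The H3 genes had 4 followed probes and 0 calls. The probe annotated to both H3C11 and H3C6 had 6.09, 6.31 and 6.40 in T350A re-expression, 6.26, 5.98 and 5.92 in EZH2 re-expression, 6.56, 6.34 and 6.12 in si-EZH2 and 6.39, 6.45 and 6.53 in si-Control. It was the one followed histone probe for which every EZH2 re-expression array lay below every si-Control array, with a difference of -0.41 ± 0.13 (adjusted p = 0.0706). The single-gene probe of H3C6 differed by -0.03 ± 0.20 in the same comparison. H3C4 and H3C7 were 0.36 ± 0.16 and 0.39 ± 0.14 higher in EZH2 re-expression than in si-EZH2, and neither passed the test (adjusted p = 0.245 and 0.152).

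The H4 genes had 7 followed probes and 0 calls. H4C14 had 7.43, 7.33 and 6.93 in T350A re-expression, 7.38, 7.47 and 7.12 in EZH2 re-expression, 6.68, 7.02 and 6.74 in si-EZH2 and 7.07, 7.12 and 6.78 in si-Control. Its difference of 0.51 ± 0.15 in EZH2 re-expression against si-EZH2 had an adjusted p of 0.0821, and that of 0.42 ± 0.15 in T350A re-expression one of 0.23. Under 7 of the 10 other settings H4C14 was called, higher, in EZH2 re-expression against si-EZH2 (adjusted p between 0.0207 and 0.0362). Its copy H4C15 differed by 0.23 ± 0.13 in EZH2 re-expression against si-EZH2. Against si-Control H4C15 differed by 0.35 ± 0.13 and did not pass the test (adjusted p = 0.1015). It was called higher there under the stricter filter (adjusted p = 0.0453). H4C8 had 7.17, 7.34 and 7.43 in T350A re-expression, 7.08, 7.28 and 6.94 in EZH2 re-expression, 7.33, 7.31 and 7.39 in si-EZH2 and 7.02, 7.08 and 7.01 in si-Control. Its order differed from that of the called probes, with si-EZH2 above both EZH2 re-expression (-0.25 ± 0.11, adjusted p = 0.236) and si-Control (0.30 ± 0.11, adjusted p = 0.162), and neither difference passed the test. H4C3 averaged 10.64 ± 0.03 in T350A re-expression, 10.67 ± 0.07 in EZH2 re-expression, 10.66 ± 0.20 in si-EZH2 and 10.77 ± 0.04 in si-Control. For H4C12 the EZH2 re-expression arrays (6.87, 6.68 and 6.99) lay above the si-EZH2 arrays (6.55, 6.63 and 6.6), a difference of 0.25 ± 0.12 that did not pass the test (adjusted p = 0.274). H4C5 and H4C11 had groups that overlapped and 0 calls.

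**Figure D4:**
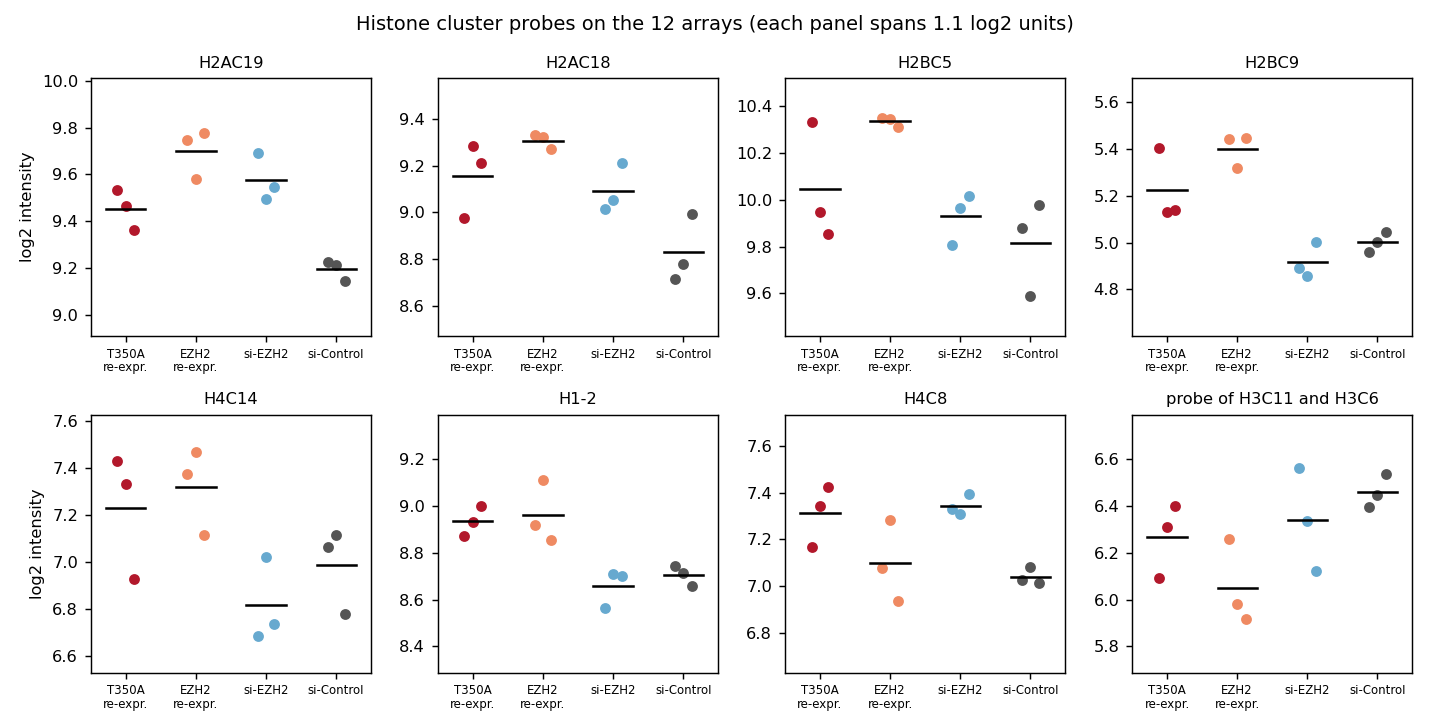
log2 intensity (y axis, each panel spanning the same range) of 8 followed histone probes on the 3 arrays of each group (points), with group means (bars). In the upper row, the probes called in EZH2 re-expression against si-Control, the EZH2 re-expression points lie above all si-Control points.

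By cluster, all 8 followed HIST2 probes had a higher mean in EZH2 re-expression than in si-Control, with a median difference of 0.34. In the HIST1 cluster these were 15 of 20 probes, with a median of 0.20. In T350A re-expression against si-Control they were 7 of 8 HIST2 probes (median 0.21) and 16 of 20 HIST1 probes (median 0.16). Without re-expressed EZH2, the si-EZH2 mean exceeded that of si-Control at 6 of 8 HIST2 and 9 of 20 HIST1 probes. The medians there were 0.22 for HIST2 and -0.0044 for HIST1. EZH2 re-expression exceeded si-EZH2 at 6 of 8 HIST2 (median 0.17) and 13 of 20 HIST1 probes (median 0.02). T350A re-expression exceeded si-EZH2 at 4 of 8 HIST2 (median 0.03) and 13 of 20 HIST1 probes (median 0.08). In T350A re-expression against EZH2 re-expression 0 of 8 HIST2 probes were above 0 (median -0.15), against 9 of 20 HIST1 probes (median -0.02). Several HIST2 probes belong to copies that share sequence, so these counts are not of independent genes. By histone, the medians in EZH2 re-expression against si-Control were 0.20 for H1, 0.27 for H2A, 0.23 for H2B, 0.09 for H3 and 0.22 for H4. No difference between clusters or histones was tested.

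The calls of EZH2 re-expression against si-Control rested on few arrays. H2AC19 remained called without any one of the 12 arrays (adjusted p between 0.00855 and 0.0368). The count of 4 fell to 1 without si-Control replicate 1, si-Control replicate 2, EZH2 re-expression replicate 1 or EZH2 re-expression replicate 2, to 2 without EZH2 re-expression replicate 3 and to 3 without si-Control replicate 3. It was also 1, H2AC19, with position on the chip as a covariate, and the EZH2 re-expression arrays sat in neighbouring chip sections, so chip position was not evenly spread over the groups. The probe annotated to H3C11 and H3C6 was called lower in this comparison under 3 of the 10 other settings, with adjusted p-values of 0.0346 with median scaling, 0.0497 with offset 50 and 0.0273 with the stricter filter. With median scaling, 2 probes were called higher. The H2BC9 call against si-EZH2 was lost without si-EZH2 replicate 1, si-EZH2 replicate 2, EZH2 re-expression replicate 1 or EZH2 re-expression replicate 3. In si-EZH2 against si-Control, H2AC19 was called, higher, under 7 of the 10 other settings and H2BC21 under 4. In EZH2 re-expression against si-Control, H2AC20 was called, higher, with uncorrected background, offset 50, the authors' values or limma-trend (adjusted p between 0.0347 and 0.048). In EZH2 re-expression against si-EZH2, H2BC5 was called higher under the same settings and also the stricter filter (adjusted p between 0.0185 and 0.0459). H1-2 was called higher in that comparison with offset 50 (adjusted p = 0.0462).

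The medians over the 29 probes moved with single arrays as well. The median of 0.093 in EZH2 re-expression against si-EZH2 was 0.174 without EZH2 re-expression replicate 3 and 0.152 without EZH2 re-expression replicate 2. In si-EZH2 against si-Control the median of 0.108 was 0.057 without si-Control replicate 1, 0.063 without si-Control replicate 2, 0.072 without si-EZH2 replicate 2 and 0.034 without si-EZH2 replicate 3. In T350A re-expression against si-EZH2 the median of 0.064 was 0.038 without T350A re-expression replicate 3. In T350A re-expression against EZH2 re-expression the median of -0.056 was -0.035 without EZH2 re-expression replicate 2. Over the arrays left out, the median lay between 0.18 and 0.23 in EZH2 re-expression against si-Control and between 0.15 and 0.20 in T350A re-expression against si-Control. Over the 10 other settings it ranged from 0.043 to 0.123 in EZH2 re-expression against si-EZH2, 0.049 to 0.108 in si-EZH2 against si-Control, 0.028 to 0.064 in T350A re-expression against si-EZH2, -0.056 to -0.031 in T350A re-expression against EZH2 re-expression, 0.122 to 0.233 in EZH2 re-expression against si-Control and 0.109 to 0.168 in T350A re-expression against si-Control. The 6 medians kept their sign throughout.

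The genes that make and process histone mRNA, a list of 22 genes on the array with 20 followed, had 0 calls in any of the 6 comparisons. The share of all tested probes called lay between 0.00858% and 7.24%, so with 20 genes 0 calls is near that share. The smallest adjusted p of the list was 0.0562, for SLBP, which binds the histone mRNA stem-loop. SLBP differed by -0.45 ± 0.12 in T350A re-expression against si-Control. NPAT, the activator of histone gene transcription, differed by -0.31 ± 0.13 in EZH2 re-expression against si-Control (adjusted p = 0.151). HINFP, a histone H4 gene regulator, differed by 0.32 ± 0.10 in T350A re-expression against si-EZH2 (adjusted p = 0.189).

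Of 19 followed chaperone and deposition genes, 1 rose and 1 fell in EZH2 re-expression against si-Control, near the shares over all tested probes (3.6% called higher and 3.64% lower). CHAF1B, a subunit of the chromatin assembly factor that deposits H3 and H4 behind the replication fork, rose by 0.49 ± 0.11 (adjusted p = 0.0143). CABIN1, a subunit of the HIRA complex, fell by -0.66 ± 0.11 (adjusted p = 0.00304). CABIN1 also fell in si-EZH2 against si-Control, by -0.53 ± 0.11 (adjusted p = 0.0172), and in T350A re-expression against si-Control, by -0.49 ± 0.11 (adjusted p = 0.026). These 3 comparisons share their si-Control arrays, and the shares of all tested probes called lower in the other 2 were 1.29% and 1.81%. Of 10 followed histone variants outside the clusters, 1 rose in EZH2 re-expression against si-EZH2, and 1 rose and 1 fell against si-Control. With 10 genes, single calls stand beside shares over all tested probes of 1.5% called higher against si-EZH2, and of 3.6% called higher and 3.64% lower against si-Control. CENPA, the H3 variant of centromeres, rose by 0.78 ± 0.14 in EZH2 re-expression against si-EZH2 (adjusted p = 0.00733) and by 0.60 ± 0.14 against si-Control (adjusted p = 0.0155). H3-3B, which encodes the replication-independent H3.3, fell by -0.44 ± 0.11 in EZH2 re-expression against si-Control (adjusted p = 0.0228).

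Genes of the cell cycle were examined in the same comparisons. Of 24 followed S phase and DNA replication genes, 2 rose and 0 fell in EZH2 re-expression against si-EZH2, TK1 by 0.92 ± 0.11 (adjusted p = 0.000897) and CCNA2 by 0.57 ± 0.13 (adjusted p = 0.0264). Against si-Control 1 rose, TK1 by 0.74 ± 0.11 (adjusted p = 0.00113). The shares of all tested probes called higher were 1.5% in the first comparison and 3.6% in the second. The 1 call among 24 S phase genes against si-Control is near that share. Of 24 followed G2/M genes, 9 rose and 0 fell in EZH2 re-expression against si-EZH2, where 1.5% of all tested probes were called higher and 1.38% lower. Against si-Control 5 rose and 1 fell, with 3.6% of all called higher and 3.64% lower. In si-EZH2 against si-Control 5 G2/M genes fell and 0 rose, with 1.29% of all called lower. In T350A re-expression 0 S phase or G2/M genes were called against si-EZH2 or EZH2 re-expression. The shares of all tested probes called there were 0.103% and 0.00858%. The difference from si-EZH2 was above 0 for 19 of 24 G2/M genes (median 0.18) and 15 of 24 S phase genes (median 0.015). That from EZH2 re-expression was above 0 for 2 of 24 G2/M genes (median -0.32) and 4 of 24 S phase genes (median -0.13). Against si-Control 1 G2/M gene, FOXM1, fell in T350A re-expression (-0.63 ± 0.13, adjusted p = 0.019), where 1.81% of all were called lower.

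The median difference in EZH2 re-expression against si-EZH2 was 0.09 for the histone probes, 0.14 for the S phase genes and 0.45 for the G2/M genes. Against si-Control, EZH2 re-expression had a median of 0.22 for the histone probes, 0.20 for the S phase genes and 0.16 for the G2/M genes. That in si-EZH2 against si-Control was 0.11 for the histone probes, of which only 15 of 29 were above 0. It was 0.04 for the S phase genes and -0.22 for the G2/M genes. The part of these genes in the histone values was not tested. With labelling from poly(A) tails, the histone medians may not follow the non-polyadenylated mRNA.

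Among markers of other cell types, CD14 rose by 0.85 ± 0.11 in EZH2 re-expression against si-EZH2 (adjusted p = 0.00135) and by 0.51 ± 0.11 against si-Control (adjusted p = 0.0109). EPCAM fell by -0.62 ± 0.11 in T350A re-expression against si-Control (adjusted p = 0.0055). The other followed markers of other cell types had 0 calls. The summed linear signal of the 5 leukocyte markers lay between 2264 and 2348 in T350A re-expression, 2154 and 2613 in EZH2 re-expression, 2024 and 2388 in si-EZH2, and 2242 and 2703 in si-Control. CD68 averaged 10.99 to 11.09 over the groups on the log2 scale and CD14 6.94 to 7.78, so this sum mainly follows CD68. The summed signal of the 7 epithelial markers lay between 457 and 493 in T350A re-expression, 505 and 582 in EZH2 re-expression, 471 and 519 in si-EZH2, and 518 and 561 in si-Control. For the 10 fibroblast markers it lay between 165221 and 173261 in T350A re-expression and 159900 and 166078 in EZH2 re-expression. It lay between 179426 and 183960 in si-EZH2 and 174256 and 179575 in si-Control, and 0 fibroblast markers were called. The part of these markers in the histone values was not tested.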

How the data were processed

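Per the labels' protocols, total RNA was extracted on Qiagen RNeasy columns and labelled with the Ambion MessageAmp kit, a kind of kit that primes from poly(A) tails. The deposited non-normalized table gives an intensity for each of 47231 probes and array, on a linear scale without background subtraction, and, per the file headers, a detection p-value, in steps of 1 in 770. The authors' deposited normalized table gives intensity values for 47229 probes, by a method not given in the sources used here. Within each array these ranked as the non-normalized values (rank correlation 1). All value columns matched a sample.

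From the non-normalized intensities, background estimated from the detection p-values was removed by normexp (offset 16). Quantile normalization and log2 followed (limma 3.58.1, R 4.3.3). Probes with detection p under 0.05 on at least 3 of 12 arrays were tested (23313 probes). limma fitted the 4 group means to all 12 arrays (8 residual and 7.29 prior degrees of freedom), with 6 pairwise 2-sided tests and an F-test over 4 groups, each adjusted by Benjamini-Hochberg over all 23313 probes. Errors on differences are standard errors. The median replicate SD was 0.153. The method was tested on simulated data, with planted changes larger than any histone difference reported here. Recovery of changes as small as those was not tested.

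Symbols came from the platform annotation as given, and older list names were matched through RefSeq synonyms: 30113 probes had 1 symbol, 8 several and 17110 are unnamed here. Each gene of another list was represented by its probe with the highest mean. The histone genes and the lists were chosen with earlier results of these data known. Any followed histone probe could be named, in full where called, with up to 3 genes of each other list by smallest adjusted p. Chip section, taken from the labels, and replicate number were tried as terms.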

Additional observations from a re-analysis of the deposited data

How the results depend on the processing

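Each array was left out in turn, and 10 other settings were tried: the authors' values (set to at least 1), skipping background correction, offset 50, median scaling, limma-trend with robust moderation, chip section as covariate, a replicate block, fitting the compared groups alone, testing unfiltered probes, and a stricter filter (detection p under 0.01 on every array). The number of histone probes called in si-EZH2 against si-Control was 0, and became 2 with the authors' values, limma-trend, offset 50 or uncorrected background, and 1 with chip section, unfiltered probes or the stricter filter. In EZH2 re-expression against si-EZH2 it was 1, and became 3 with offset 50 and 2 with the replicate block, chip section, limma-trend, the stricter filter, the authors' values or uncorrected background. In EZH2 re-expression against si-Control it was 4, and became 1 with chip section, 3 with median scaling, and 5 with offset 50 or the stricter filter. In T350A re-expression against si-Control it was 0, and became 1 (H2AC18) with limma-trend, the authors' values or offset 50. The F-test count was 2, and became 5 with limma-trend, the authors' values, offset 50, the stricter filter or uncorrected background, and 1 with median scaling or chip section. The replicate block changed no other of these counts by more than 1.5 times. Over the 18 same-numbered pairs r lay between -0.036 and 0.071 (median 0.016, against -0.0072 for different numbers), and 7 of 12 arrays correlated best with their own number. As 0 pairs exceeded the limit of 0.1, the samples were treated as unpaired. T350A re-expression against si-EZH2 and against EZH2 re-expression had 0 calls in every setting.

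Leaving out single arrays gave 0 calls in si-EZH2 against si-Control, 0 to 1 in EZH2 re-expression against si-EZH2, 1 to 4 in EZH2 re-expression against si-Control, 0 in T350A re-expression against si-Control and 0 to 4 by the F-test. The number of probes with a difference above 0, a count added after the data were seen, ranged from 15 to 19 in si-EZH2 against si-Control, 18 to 21 in EZH2 re-expression against si-EZH2, 16 to 20 in T350A re-expression against si-EZH2, 9 to 13 in T350A re-expression against EZH2 re-expression, 22 to 25 in EZH2 re-expression against si-Control and 21 to 24 in T350A re-expression against si-Control. Under the stricter filter 19 histone probes were tested, and in the same order of comparisons 10, 13, 11, 6, 14 and 15 were above 0. Under the other settings it kept within 1.5 times, with 15 of 29 in EZH2 re-expression against si-EZH2 under median scaling.

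No called difference reversed. H2AC19 kept its call against si-Control under all 10 settings that left every array in. H2AC18 and H2BC5 each kept theirs under 8 of 10. H2BC9, whose probe did not pass the stricter filter, kept its call under 4 of 9 against si-Control and 5 of 9 against si-EZH2. Signal near background limits H2BC9 and the other probes detected on fewer than 12 arrays.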
